A study of Mus musculus with 2 samples.

Results

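The collagen genes are those that carry a collagen chain name, Col followed by the number of the collagen type, a and the number of the chain, and that have at least one protein-coding transcript in the annotation. This rule, which uses names and no expression value, found 44 of the 55536 annotated genes, among 22015 nuclear protein-coding genes. They were measured by total RNA-seq of left cerebral cortex from female mice of strain B6CASTF1/J, an F1 cross between C57BL/6J and CAST/EiJ, at an age of 18 to 20 months. All tissue belonged to 1 group of 2 libraries, biological replicates 1 and 2, with 300 ng of input RNA and added spike-ins each, and no treatment, genotype or age contrast was part of the design. Both biosamples carry the same donor entry in the labels, so it is unclear whether they came from separate animals, and the spread between them may be technical.

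Collagens are extracellular proteins whose chains wind around each other in a helix that has room only for glycine at its core, so the chains repeat glycine followed by a pair of other residues, often proline and hydroxyproline. Fibrillar collagens are laid down as cross-striated fibrils in connective tissue, in the brain mainly in the meninges and the walls of larger vessels, while type IV collagen forms the sheet-like network of the basement membranes under endothelium and at the pial surface. The remaining types decorate fibrils (the fibril-associated collagens, or FACITs), form beaded filaments (type VI) or hexagonal networks (types VIII and X), or span the cell membrane.

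The sequence that unites the genes, the glycine repeat, differed between the classes in how long it ran without a break. In the 11 fibrillar chains the longest unbroken run of glycine-led triplets in the coding sequence held between 216 and 344 triplets, with a median of 338, and 9 of the 11 reached 300. The 2 with the shorter runs were Col24a1, with 216 triplets, and Col27a1, with 217. Runs of 30 to 66 triplets were found in the 8 basement membrane genes, in which the repeat is broken many times: Col4a1 had 22 runs of at least 4 triplets and its longest held 40. In the 25 other collagens the longest run held 23 to 113 triplets. The classes themselves rest on collagen structure, so these run lengths describe the classes and are no independent finding. Exons of exactly 54 coding bases, the unit of fibrillar collagen genes, numbered 21 to 33 in each fibrillar gene, 4 to 28 in the 9 FACIT genes, 1 to 3 in the 6 type IV genes and 0 in the 3 genes of types VIII and X. Not all of them consist of whole triplets led by a glycine codon (GGN): 23 of 24 did in Col1a2, 14 of 15 in Col19a1 and 0 of 3 in Col17a1. For 8 chains that lead their classes in the cortex, the first exon of 54 bases that does is printed here to make the repeat visible, with those leading glycine codons in capitals. The bases come from annotated GENCODE M21 transcripts on mm10 and are given 5′ to 3′ on the coding strand.
Col1a1 (chr11:94939904-94939957, plus strand): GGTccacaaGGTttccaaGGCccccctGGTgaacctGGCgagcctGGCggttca
Col1a2 (chr6:4515481-4515534, plus strand): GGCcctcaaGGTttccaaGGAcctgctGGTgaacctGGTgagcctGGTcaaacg
Col11a2 (chr17:34051480-34051533, plus strand): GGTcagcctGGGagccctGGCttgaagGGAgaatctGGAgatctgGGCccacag
Col4a1 (chr8:11245211-11245264, minus strand): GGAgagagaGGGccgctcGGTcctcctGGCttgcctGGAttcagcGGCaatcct
Col4a2 (chr8:11413979-11414032, plus strand): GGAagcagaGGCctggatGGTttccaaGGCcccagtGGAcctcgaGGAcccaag
Col6a1 (chr10:76719623-76719676, minus strand): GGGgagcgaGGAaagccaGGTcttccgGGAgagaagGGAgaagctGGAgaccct
Col25a1 (chr3:130517684-130517737, plus strand): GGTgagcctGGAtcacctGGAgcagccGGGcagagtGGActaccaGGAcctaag
Col19a1 (chr1:24461476-24461529, minus strand): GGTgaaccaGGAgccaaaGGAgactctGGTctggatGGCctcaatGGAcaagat
The printed exons were chosen for their glycine frame, so the frame itself is no finding. Those of Col1a1 and Col1a2, whose products assemble into type I collagen, were identical at 42 of 54 positions.

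Summed over the 44 genes, collagen transcripts amounted to 156.0 TPM (a read count per length, scaled so that each library has the same total) in replicate 1 and 194.78 TPM in replicate 2. These levels rest on 16313 expected counts in replicate 1 and 15029 in replicate 2, or 0.0504% and 0.0606% of the counts on genes. In both libraries 24 of the 44 genes (54.5%) reached 1 TPM, the level used here for detection. The same level was reached by 58.3% of nuclear protein-coding genes, a slightly larger share. In alignment-free TPM 31 of the 44 collagens reached it, against 62.2% of coding genes. In TPM rescaled over nuclear protein-coding genes alone 32 of the 44 did, against 62.6% of coding genes. In both of these settings the collagen share was the larger one, so its side of the background depends on the measure. Another 3, Col4a4, Col5a2 and Col6a4, reached 1 TPM in replicate 2 alone, and 17 stayed below it in both libraries. None was without counts, the lowest value being 10 counts for Col2a1 in replicate 2. The median collagen gene had 1.41 TPM in replicate 1 and 1.44 in replicate 2, against 3.56 and 3.67 for nuclear protein-coding genes. In tissue RNA such levels do not separate few cells with much collagen RNA from many cells with little.

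Collagen RNA in this tissue was concentrated in 5 genes, Col4a1, Col6a1, Col4a2, Col25a1 and Col19a1, which together held 55.1% of collagen TPM in replicate 1 and 57.8% in replicate 2. All 5 lay above 12 TPM in both libraries, and the next gene, Col16a1, stayed under 10. Only a pair of these 5 are basement membrane chains and none is fibrillar. By class, the fibrillar genes held 18.2% of collagen TPM in replicate 1 and 16.6% in replicate 2, the basement membrane genes 27.3% and 30.9%, and the others 54.5% and 52.6%. The median gene of a class had 2.37 ± 0.21 TPM among fibrillar, 1.40 ± 0.0035 TPM among basement membrane and 1.08 ± 0.24 TPM among other collagens (SD of the class median, n = 2). The small SD for basement membrane genes does not describe the members. Their median lies midway between Col18a1 and Col4a4, at 1.87 and 0.93 TPM in replicate 1 and 1.47 and 1.32 in replicate 2. At 1 TPM in both libraries were 8 of 11 fibrillar, 4 of 8 basement membrane and 12 of 25 other collagens.

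**Figure D1:**
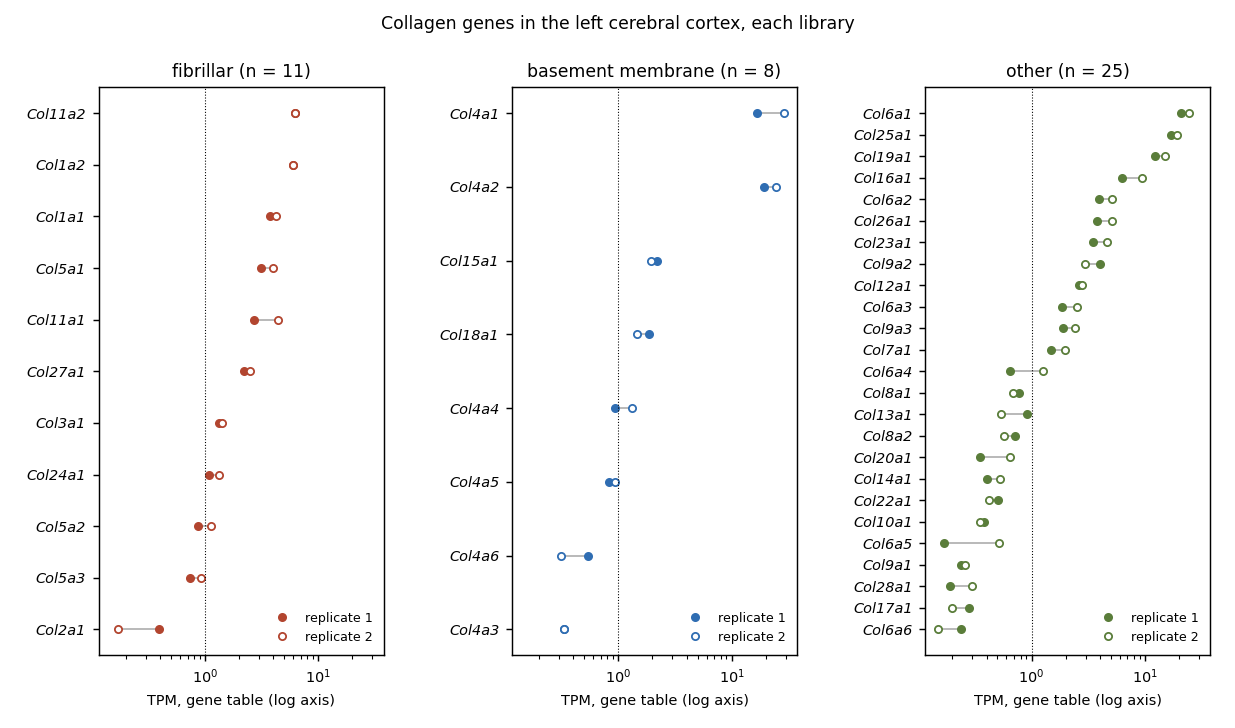
TPM of each of the 44 collagen genes on a log axis, by class, with replicate 1 as filled and replicate 2 as open circles, a grey line joining the 2 libraries and a dotted line at 1 TPM; symbols overlap where the libraries are nearly equal. Fibrillar genes lie between 0.17 and 6.27 TPM, and the 5 genes above 12 TPM in both libraries are Col4a1, Col4a2, Col6a1, Col25a1 and Col19a1.

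Among the basement membrane collagens, the α1 and α2 chains of type IV, which assemble into the form found in basement membranes of most tissues, stood far above the rest. Col4a1 (chr8:11198423-11312826, minus strand, mm10) had 16.6 TPM in replicate 1 and 29.0 in replicate 2. Col4a2 (chr8:11312805-11449287, plus strand) had 19.3 TPM in replicate 1 and 24.8 in replicate 2. The order of these chains was not stable: Col4a2 was the higher in replicate 1 and Col4a1 in replicate 2, with ratios of Col4a1 to Col4a2 of 0.864 and 1.17. In the alignment-free tables the ratio was 1.03 in replicate 1 and 1.30 in replicate 2. On protein-coding transcripts alone it was 0.606 and 0.647, so the side of 1 on which it lies depends on which transcripts and which tables are counted. The chains that elsewhere replace them, as in the kidney glomerulus and around smooth muscle, were low. Col4a4 had 0.93 TPM in replicate 1 and 1.32 in replicate 2, Col4a5 had 0.83 and 0.93, Col4a6 had 0.54 and 0.31, and Col4a3 had 0.33 in both libraries. The level of Col4a1 was 20.0 times that of Col4a5 in replicate 1 and 31.2 times in replicate 2. Types XV and XVIII, the multiplexins of the basement membrane zone, were intermediate. Col15a1 had 2.20 TPM in replicate 1 and 1.93 in replicate 2. Col18a1, whose product yields the fragment endostatin, had 1.87 and 1.47 TPM.

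The 6 type IV genes lie in 3 head-to-head pairs on 3 chromosomes. Annotated gene bodies of Col4a1 and Col4a2 overlap by 22 bases on chromosome 8, those of Col4a4 and Col4a3 are 71 bases apart on chromosome 1, and those of Col4a6 and Col4a5 are 1308 bases apart on chromosome X. The members of a pair had unequal levels in different directions, with ratios of Col4a3 to Col4a4 of 0.355 in replicate 1 and 0.250 in replicate 2 and of Col4a5 to Col4a6 of 1.54 and 3.0. In the alignment-free tables the ratio of Col4a3 to Col4a4 was 0.497 in replicate 1 and 1.04 in replicate 2, so its side of 1 in replicate 2 depends on the table, while that of Col4a5 to Col4a6 was 1.36 and 2.57. The promoter windows of the most abundant pair, 250 bases before to 50 after each start in RefSeq on GRCm38.p6, are shown because they share 78 bases (chr8:11312777-11312854) read on opposite strands. Capitals mark the letters of the CCAAT box and of the GC box GGGCGG on either strand.
Col4a1 (chr8:11312777-11313076, minus strand): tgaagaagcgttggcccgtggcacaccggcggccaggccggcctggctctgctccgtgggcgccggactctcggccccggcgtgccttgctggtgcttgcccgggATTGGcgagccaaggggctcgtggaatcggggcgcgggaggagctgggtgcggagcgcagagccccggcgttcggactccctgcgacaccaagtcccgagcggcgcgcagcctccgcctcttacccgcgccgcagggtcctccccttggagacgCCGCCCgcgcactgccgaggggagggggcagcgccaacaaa
Col4a2 (chr8:11312555-11312854, plus strand): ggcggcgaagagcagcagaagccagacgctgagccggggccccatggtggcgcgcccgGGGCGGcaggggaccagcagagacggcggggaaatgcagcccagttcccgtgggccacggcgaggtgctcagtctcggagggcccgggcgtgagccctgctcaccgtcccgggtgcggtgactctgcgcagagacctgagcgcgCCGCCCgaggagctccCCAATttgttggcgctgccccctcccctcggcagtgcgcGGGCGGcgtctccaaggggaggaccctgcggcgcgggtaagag
The windows hold 74.0% G and C for Col4a1 and 73.7% for Col4a2. TATAAA was found in neither on either strand, CCAAT once in each, and GGGCGG once in the Col4a1 window and 3 times in the Col4a2 window. The GGGCGG match of the Col4a1 window lies in the 78 shared bases and is also the last of the 3 in the Col4a2 window. RefSeq windows were matched to 35 of the 44 collagen genes, in 38 windows. GGGCGG on either strand was present in 60.5% of these and in 35.7% of all 32851 windows of that length. CCAAT was present in 34.2% against 37.4%, and TATAAA in 13.2% against 13.6%. These are matches of letters and show no binding.

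Fibrillar collagens were present at low to moderate levels, with Col1a2 and Col11a2 at the top. Col11a2, the α2 chain of type XI, a minor fibril collagen best known from cartilage, had 6.22 TPM in replicate 1 and 6.27 in replicate 2. Its partner Col11a1 had 2.68 and 4.42 TPM, which gave ratios of Col11a1 to Col11a2 of 0.431 and 0.705. Of the chains of type I collagen, the main fibril former of skin, bone and meninges, Col1a2 had 5.99 TPM in replicate 1 and 5.92 in replicate 2, and Col1a1 had 3.75 and 4.2. The order of Col1a2 and Col11a2 depended on the measure. Col1a2 was the higher in alignment-free TPM, with 11.6 and 11.8 against 8.47 and 8.85 for Col11a2, and on coding transcripts alone, with 5.57 and 5.61 against 4.46 and 5.21. Type I collagen is built from more α1 than α2 chains, but the RNA ratio of Col1a1 to Col1a2 was 0.626 in replicate 1 and 0.709 in replicate 2. In the alignment-free tables it was 0.437 and 0.531, so Col1a2 was the higher one in all 4 measurements. Type V chains, which set fibril width, were unequal. Col5a1 had 3.12 TPM in replicate 1 and 4.0 in replicate 2, against 0.86 and 1.13 for Col5a2 and 0.73 and 0.92 for Col5a3. Col3a1, the partner of type I in distensible tissue, had 1.34 TPM in replicate 1 and 1.41 in replicate 2, from fractional counts, so part of its reads was shared with another gene. The evolutionarily distant chains with shorter helices were detected as well, Col27a1 at 2.22 and 2.51 TPM and Col24a1 at 1.09 and 1.33 TPM. Col2a1, the main fibril chain of cartilage, was the lowest fibrillar gene, with 0.39 TPM in replicate 1 and 0.17 in replicate 2 from 25 and 10 counts.

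Type VI collagen was dominated by a single chain. Col6a1 (chr10:76708792-76726168, minus strand) had 20.8 TPM in replicate 1 and 24.6 in replicate 2, against 3.96 and 5.14 for Col6a2 and 1.85 and 2.54 for Col6a3. Beaded type VI filaments are built from one chain of each kind, yet the ratio of Col6a1 to Col6a2 was 5.24 in replicate 1 and 4.79 in replicate 2, and that of Col6a3 to Col6a1 was 0.089 and 0.103. Both ratios lay on the same side of 1 in the alignment-free tables and on protein-coding transcripts alone. The chains that can stand in for Col6a3 were scarce. Col6a4 had 0.65 and 1.25 TPM, Col6a5 had 0.17 and 0.52, and Col6a6 had 0.24 and 0.15. Col6a5 and Col6a6 are uncertain, because their expected counts were fractional and summed to whole numbers only together, 82.0 counts in replicate 1 and 50.0 in replicate 2, so reads were shared out between the pair.

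The FACITs and the membrane-spanning collagens each had a single leader. Col25a1 (chr3:130131501-130599877, plus strand), a transmembrane collagen whose shed part was first found in amyloid plaques, had 16.9 TPM in replicate 1 and 19.3 in replicate 2. Col23a1, of the same structural kind, had 3.48 and 4.64 TPM. Col13a1, which in mice serves the neuromuscular junction, had 0.91 and 0.54, and Col17a1, a component of hemidesmosomes in skin, had 0.28 and 0.20. Col19a1 (chr1:24261890-24587472, minus strand), a FACIT that in mice is made by neurons and takes part in synapse formation, had 12.4 TPM in replicate 1 and 14.9 in replicate 2. It was followed by Col16a1, with 6.25 and 9.51 TPM. Both genes had a higher level than any fibrillar chain in replicate 2, and in replicate 1 Col16a1 and Col11a2 were nearly equal. For Col16a1 this depended on the transcripts counted. On coding transcripts alone it had 2.77 and 3.77 TPM, below Col1a2, with 5.57 and 5.61, and Col11a2, with 4.46 and 5.21. The type IX chains, which coat type II fibrils in cartilage, were unequal: Col9a2 had 3.98 and 2.96 TPM, Col9a3 had 1.88 and 2.44, and Col9a1 had 0.24 and 0.26. Col12a1, a FACIT of type I fibrils, had 2.61 and 2.78 TPM. The other FACITs were below 1 TPM in both libraries, with 0.40 and 0.53 for Col14a1, 0.35 and 0.64 for Col20a1 and 0.51 and 0.42 for Col22a1. Col20a1 shares 79 exonic bases on its own strand with the more highly counted gene BX649560.1, which had 397 and 390 counts against 36 and 48 for Col20a1, and its value is uncertain for that reason. Opposite-strand overlaps with genes of few counts were found too, of 234 exonic bases between Col9a3 and Tcfl5 (6 and 7 counts) and of 563 between Col4a3 and C430014B12Rik (3 and 2 counts).

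Of the collagens with other architectures, 2 were detected. Col26a1, a short chain with an EMI domain, had 3.74 TPM in replicate 1 and 5.15 in replicate 2. Col7a1, the anchoring fibril chain of skin, had 1.47 and 1.99. The network formers stayed below 1 TPM in both libraries: Col8a1, found around vessels, had 0.77 and 0.69 TPM, Col8a2 had 0.71 and 0.57, and Col10a1, the chain of hypertrophic cartilage, had 0.38 and 0.35. Col28a1, known from peripheral nerve, had 0.19 and 0.30 TPM.

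A gene's TPM need not stand for RNA that encodes the full chain. Among the 24 detected collagens, protein-coding transcripts held a median of 75.5% of the gene's TPM in replicate 1 and 78.3% in replicate 2, but 95.2% and 94.5% of its counts. TPM divides by length, so a read on a short transcript adds more to it than a read on a long one. Above 90% of TPM in both libraries was coding for 9 genes, among them Col6a1, with 99.4% and 97.6%, and Col4a2, with 100% and 98.3%. Below 50% in both were Col7a1, Col9a2, Col16a1 and Col26a1. For Col7a1 the coding share was 24.5% in replicate 1 and 26.1% in replicate 2. Its retained-intron transcript Col7a1-208 carried 56.5% and 31.2% of the gene's TPM on 7.95 and 4.48 counts, while the coding Col7a1-201 had 74.3 and 80.3 counts. The low coding share of Col7a1 therefore rested on a handful of reads. Col16a1 was the only one of these genes below 50% coding by counts as well, with 45.1% in replicate 1 and 43.25% in replicate 2. Its transcript Col16a1-209, annotated as a target of nonsense-mediated decay, held 27.0% and 19.5% of the gene's TPM on 192 and 158 counts. In the alignment-free tables that share was 14.8% and 24.5%.

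Other non-coding shares also rested on many reads. Col19a1-203, annotated as a processed transcript without an open reading frame, held 39.0% of Col19a1 TPM in replicate 1 and 35.4% in replicate 2, on 579 and 477 counts. In the alignment-free tables its share was 38.6% and 36.4%. Col25a1-204, annotated as a target of nonsense-mediated decay, held 33.2% of Col25a1 TPM in replicate 1 and 33.8% in replicate 2, on 464 and 404 counts, with 32.6% and 33.5% in the alignment-free tables. These 2 shares moved little between libraries or tables. That of Col4a1-208, a nonsense-mediated decay transcript with 24.2% and 26.3% of Col4a1 TPM on 580 and 823 counts, was 10.3% and 10.5% in the alignment-free tables. Another such transcript, Col4a1-207, went the other way, with 0% and 10.6% of Col4a1 TPM against 11.8% and 17.3% in the alignment-free tables. The coding share of Col4a1 was 70.1% and 54.2%, and 67.2% and 63.8% in the alignment-free tables. The transcript with the highest share was the same in both libraries for 21 of the 24 detected genes, and the same in all 4 tables for 18. Col19a1 was among those that changed with the table: the coding Col19a1-201 led in the alignment-based tables, with 57.6% in replicate 1 and 43.0% in replicate 2, and Col19a1-203 in the alignment-free ones. On coding transcripts alone 23 of the 44 collagens reached 1 TPM in both libraries.

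**Figure D2:**
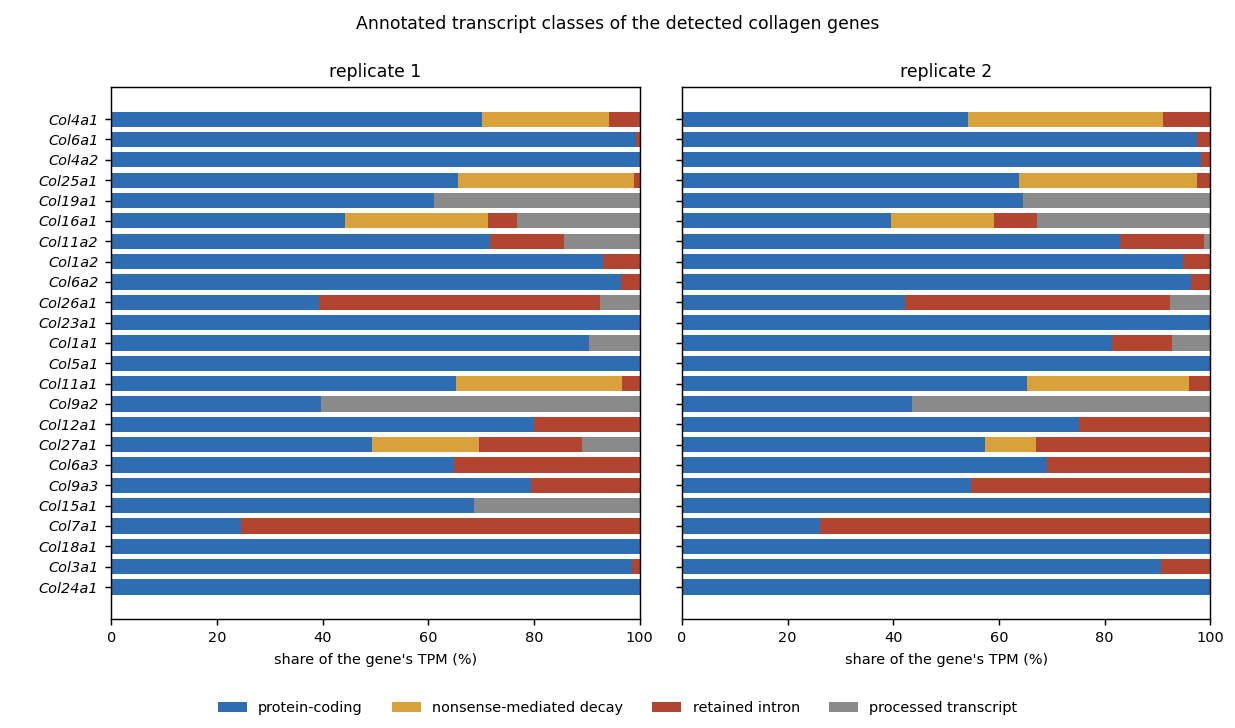
Share of each detected collagen gene's TPM held by transcripts annotated as protein-coding, nonsense-mediated decay, retained intron or processed transcript, in replicate 1 (left) and replicate 2 (right), with genes ordered by mean TPM. Col6a1 and Col4a2 are almost wholly coding in both libraries, while Col19a1, Col25a1 and Col7a1 keep sizeable non-coding shares in both.

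Between the libraries, the collagens tended to be lower in replicate 1. The log2 ratio of replicate 1 over replicate 2, taken from scaled counts, was negative for 31 of 44 genes (70.5%), against 50.0% of the 18246 genes tested, and its median was -0.15 for the collagens against 0.00 for all tested genes. No collagen differed by 2-fold, which 5.46% of tested genes did. The typical difference was nevertheless larger, with a median absolute log2 ratio of 0.29 for the collagens against 0.17 for all tested genes. The ratio's 95% counting interval (exact Clopper-Pearson, covering counting error only) excluded 0 for 18 of 44 collagens (40.9%), against 39.2% of tested genes, a share near the background. Of the 18, 15 were lower in replicate 1 (34.1% of the 44, against 20.8% of tested genes) and 3 were higher. With 1 library on each side, these ratios compare libraries and have no replicate check.

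The lower values in replicate 1 included all 5 leading genes. Col4a1 had 1684 counts in replicate 1 and 2137 in replicate 2 although replicate 1 was sequenced more deeply, which gave a log2 ratio of -0.72 with an interval of -0.82 to -0.63. For Col4a2, with 2759 and 2614 counts, it was -0.30 with an interval of -0.38 to -0.22. The 2 intervals do not meet, so the partner chains differed unequally between the libraries beyond counting error. Col19a1 had a log2 ratio of -0.27, Col6a1 of -0.18 and Col25a1 of -0.15, each with an interval below 0. The most negative value was that of Col6a4, -0.78 from 58 and 78 counts. Intervals above 0 were found for Col4a6, at 0.82 from 80 and 34 counts (interval 0.26 to 1.48), and Col18a1, at 0.37 from 209 and 124 (0.05 to 0.71). That of Col13a1, at 0.74 from 45 and 20 counts, barely cleared 0 (0.0011 to 1.63). The type I chains showed no difference beyond counting error, with 0.13 for Col1a2 (interval -0.04 to 0.31) and 0.02 for Col1a1 (interval -0.19 to 0.22).

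**Figure D3:**
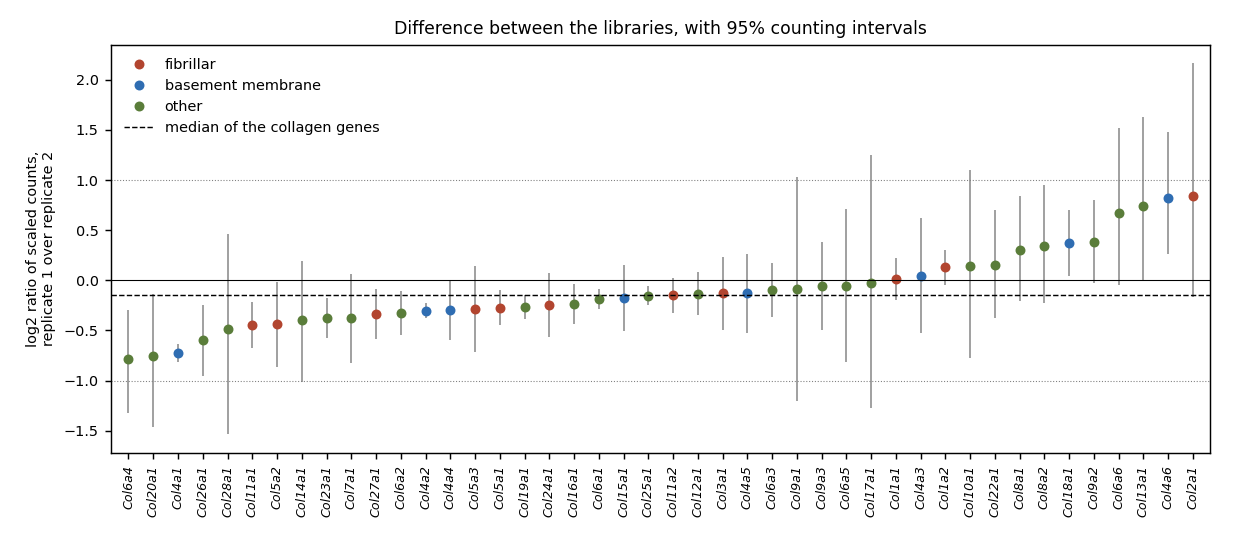
Log2 ratio of TMM-scaled counts, replicate 1 over replicate 2, for each of the 44 collagen genes in ascending order and coloured by class, with vertical lines for 95% counting intervals, a dashed line at the collagen median of -0.15 and dotted lines at a 2-fold difference. Points lie between -0.78 for Col6a4 and 0.84 for Col2a1, 31 of them below 0.

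The difference between the libraries also varied with transcript length and with the markers of cells that make collagen, and the part of either in the collagen ratios was not tested. Among nuclear protein-coding genes the median log2 ratio was 0.12 for those up to 1000 bases long, 0.07 from 1000 to 2000, 0.03 from 2000 to 4000, -0.02 from 4000 to 6000 and -0.08 above 6000. Collagen genes are long, with a median transcript length of 4798 bases in the gene tables and 33 of 44 over 4000. Of these 33, 24 were lower in replicate 1, with a median of -0.17, against 58.3% and a median of -0.04 for coding genes over 4000 bases; of the 11 shorter collagens, 7 were lower, with a median of -0.06. Markers of leptomeningeal and perivascular fibroblasts, the main makers of fibrillar collagen in the brain, mostly moved the other way. Of these 10 markers, 7 were higher in replicate 1, and the median log2 ratio was 0.60. The 3 lower ones were Dcn, at -0.29, Pdgfra, at -0.09, and Slc47a1, at -0.07. The 10 markers summed to 109 TPM in replicate 1 and 81.7 in replicate 2, of which Igf2 alone held 48.5 and 32.8. For mural cells 5 of 9 markers were higher in replicate 1 (median 0.24, sums of 78.5 and 67.8 TPM), and for endothelium 6 of 8 (median 0.20, sums of 92.8 and 90.1 TPM). None of these markers was without counts. As to the labelled tissue, all 6 markers of cortical neurons reached 1 TPM in both libraries, with sums of 3427 TPM in replicate 1 and 3348 in replicate 2, as did all 4 of astrocytes and all 5 of the oligodendrocyte lineage. The choroid plexus markers Ttr, with 6.69 and 2.84 TPM, and Kl, with 1.16 in both, were the only 2 of 6 at 1 TPM in both libraries.

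The machinery that makes collagen was expressed throughout. All 20 genes for synthesis and folding in the endoplasmic reticulum were at 1 TPM or more in replicates 1 and 2. Their median was 7.10 ± 0.45 TPM (SD of the median, n = 2). Mia3, the cargo receptor that loads procollagen into large carriers, had 103 TPM in replicate 1 and 97.1 in replicate 2. This level rested on 2369 and 1778 counts, fewer than the 3197 and 2392 of Sec23a, which had 43.35 and 45.46 TPM. Whether short transcripts raised the TPM of Mia3 was not tested. Ppib, a prolyl isomerase of the 3-hydroxylation complex, had 69.4 and 70.6 TPM, and P4hb, the shared subunit of the prolyl 4-hydroxylases, had 54.4 and 45.7. The lowest of the 20, P3h2, a prolyl 3-hydroxylase, had 1.93 and 1.82 TPM. Most of these enzymes also serve other proteins or cells, so their level does not measure collagen output. Of 8 genes for propeptide processing 5 reached 1 TPM in both libraries, a share near the 58.3% of nuclear protein-coding genes, and the median was 2.92 ± 0.10 TPM. Bmp1, the protease that removes the carboxy-terminal propeptide, had 19.0 and 27.1 TPM, Adamts3, which removes the amino-terminal one, had 7.51 and 7.97, and Pcolce, an enhancer of Bmp1, had 6.50 and 5.42. Adamts14 was lowest, with 0.10 and 0.16 TPM. Tll2, a relative of Bmp1, was the only gene on these lists over 2-fold apart between the libraries, with 12 counts in replicate 1 and 27 in replicate 2 and a log2 ratio of -1.39.

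Crosslinking enzymes of fibrils were scarce, while the one for type IV networks was not. Only 1 of the 6 crosslinking genes reached 1 TPM in both libraries, against 58.3% of nuclear protein-coding genes. The median of the 6 was 0.54 ± 0.04 TPM. The 1 that reached it was Pxdn, peroxidasin, which forms the sulfilimine bonds of type IV collagen, at 17.8 TPM in replicate 1 and 29.3 in replicate 2. Its log2 ratio was -0.69, against -0.72 for Col4a1 and -0.30 for Col4a2. Of the 5 crosslinking genes with a ratio, the other 4 were higher in replicate 1. Whether these ratios are linked was not tested. The lysyl oxidases, which crosslink fibrils and elastin, lay between 0.12 and 1.19 TPM, led by Loxl1 at 1.19 and 0.78 and Loxl3 at 0.94 and 0.97, with the lowest mean for Loxl4, at 0.13 in both. Of 13 genes for turnover and uptake 8 reached 1 TPM in both libraries, a share near the 58.3% of nuclear protein-coding genes. Their list median was 2.53 ± 0.49 TPM. Inhibitors led this list: Timp2 had 98.9 and 94.2 TPM, Timp3 had 25.1 and 28.5, and Timp4 had 8.59 and 6.95. Mmp15, with 6.55 and 4.86 TPM, and Mmp14, with 5.38 and 5.04, were also detected. So were Mrc2, with 3.39 and 2.67 TPM, Fap, with 2.87 and 1.90, and Ctsk, with 1.69 and 2.18. Mmp2, with 1.20 and 0.58 TPM, and Mmp9, with 0.87 and 0.68, did not reach 1 TPM in both libraries. The collagenases Mmp8 and Mmp13 had 1 count each in replicate 1 and 0 in replicate 2, where the limit set by no reads is 3 counts, or 0.121 CPM (counts scaled to library size).

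Receptors, matrix partners and regulators are given beside the 58.3% of nuclear protein-coding genes at 1 TPM in both libraries. Of 11 collagen receptors, 9 were at 1 TPM or more in each library, and the median was 2.40 ± 0.64 TPM. Adgrg1, a receptor for type III collagen in the developing mouse cortex, had 34.7 TPM in replicate 1 and 30.0 in replicate 2. Ddr1, a discoidin-domain receptor, had 20.9 and 19.3 TPM, and Itgb1, the β chain shared by the collagen-binding integrins, had 17.5 and 17.9. Lowest were Itga2, with 2 and 0 counts, and Gp6, the platelet collagen receptor, with 0 and 1. Among 13 basement membrane partners 12 reached 1 TPM (median 4.03 ± 0.04 TPM): the collagen-binding glycoprotein Sparc had 86.2 and 67.5 TPM, the proteoglycan Agrn had 55.1 and 67.4, and the laminin chain Lamb2 had 11.5 and 12.7. The lowest was Nid2, a linker of laminin and type IV networks, with 0.89 and 0.50 TPM. Of 12 fibril-associated proteoglycans and glycoproteins 7 reached it, no more than that share (median 2.76 ± 0.77 TPM), led by Fn1 at 17.9 and 20.4 TPM, Fmod at 12.1 and 7.71 and Bgn at 7.43 and 5.63, while Kera, a corneal proteoglycan, had no counts. Of 10 regulators of collagen transcription 9 reached it (median 5.84 ± 0.65 TPM), led by Zeb1 at 40.2 and 44.0 TPM, Smad3 at 24.8 and 33.9 and Ccn2 at 13.1 and 12.9. Tcf21, a factor of mesenchymal cells, had no counts.

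**Figure D4:**
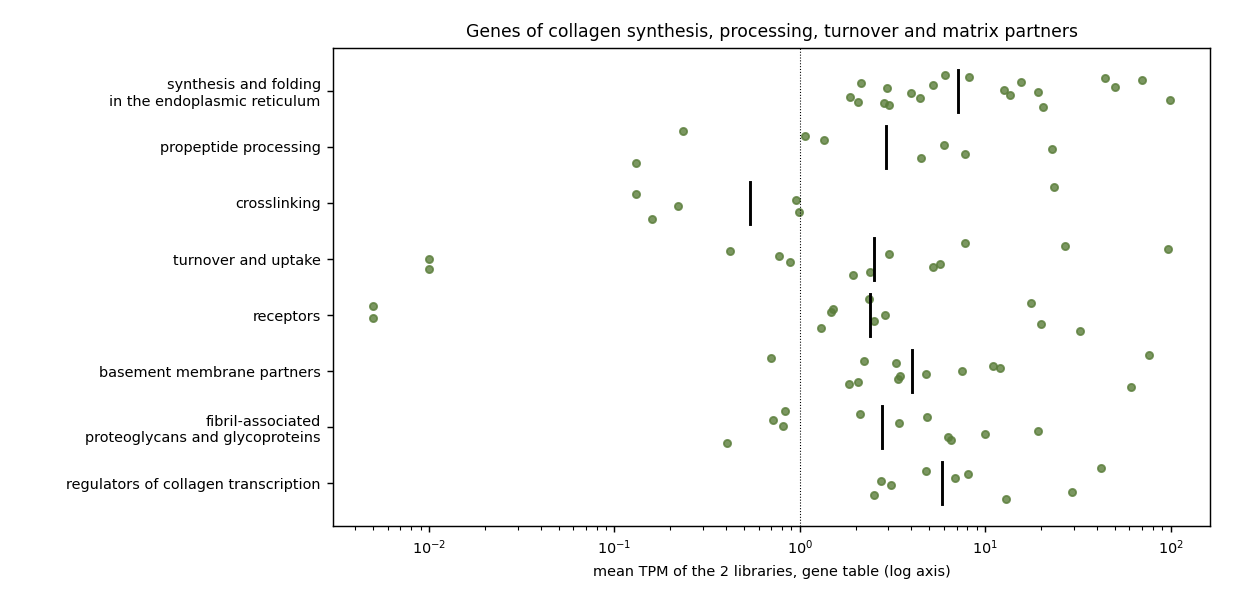
Mean TPM of the 2 libraries, on a log axis, for 93 genes on 8 lists of collagen synthesis, processing, turnover, receptors, matrix partners and regulators; each point is 1 gene, black bars mark list medians, the dotted line is at 1 TPM, and Kera and Tcf21, at 0, are not drawn. The crosslinking list has its median below 1 TPM, with Pxdn alone far to the right, and all synthesis genes lie to the right of the dotted line.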

How the data were processed

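Total RNA-seq was analysed for 2 libraries of left cerebral cortex. Per the text deposited with each library, values refer to mm10 and GENCODE M21; the gene table and a transcript table derive from a transcriptome alignment, a further (alignment-free) transcript table from reads and an index. Per the file headers, the authors give expected counts (not normalized), TPM and each transcript's percent of its gene in the alignment-based tables, and estimated counts and TPM in the alignment-free ones. Which aligner and quantifiers were used, and whether counting used strand, is not given in the sources used here. How CAST/EiJ variants affect read placement on this reference was not analysed here. The deposited TPM values sum to the same total over all entries, and nuclear protein-coding genes hold 44.0% of it in replicate 1 and 44.2% in replicate 2.

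Replicate 1 held 32504959 and replicate 2 24899781 expected counts, of which 32357983 and 24798683 lay on genes; 3 counts, the limit that a count of 0 allows, are 0.0927 and 0.121 CPM (counts scaled to library size). Members came from the name pattern, joined by gene identifier. Transcript shares were recomputed from TPM. For library ratios, expected counts were rounded, 18246 genes with a mean of 10 counts were kept, and log2 values scaled by TMM (edgeR 4.0.16, R 4.3.3, prior count 2) were subtracted; 95% intervals are exact binomial, for counting error only, as no molecular identifiers are given. With 1 group there was no test and no p-value. On simulated data (18266 genes, 200 of them changed 4-fold and drawn from those with at least 100 expected counts), 100% of the changes were recovered past 2-fold and 0.897% of unchanged genes passed it. Recovery below 100 counts was not simulated. The simulation gave every gene the same fixed dispersion, and in the real libraries 5.46% of tested genes passed 2-fold. A 4-fold change lies well past that cut, so the simulation checks the calculation only. Alternatives covered thresholds, tables, scaling (DESeq2 1.42.0 size factors), priors, filters and single libraries; values on protein-coding transcripts alone were added after seeing the data. All 44 members are named by value. Each partner list is represented at least by its 3 highest genes, its lowest and any over 2-fold apart. Members, classes and lists were chosen with earlier results of these data known.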

Additional observations from a re-analysis of the deposited data

How the results depend on the processing

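No paired analysis was possible because there is only 1 group, and leaving out a library leaves no ratio between libraries. The detected members numbered 23 to 32 under every alternative but the 2 TPM threshold, which left 17; the lead transcript, the same for 21 genes, was the same for 20 in the alignment-free tables. Levels depended on the table: alignment-free TPM exceeded gene-table TPM for every member, by a median of 1.62 times, against 1.62 times over all detected coding genes. The class median of fibrillar genes (2.37 TPM) was 4.2 in alignment-free TPM, 5.36 in TPM rescaled over nuclear protein-coding genes, 3.50 over detected members and 1.38 on coding transcripts alone. For basement membrane genes (1.40) these were 2.37, 3.17, 11.4 and 1.22, with 1.61 in posterior mean TPM and 1.00 for type IV alone. For the others (1.08) they were 1.89, 2.45, 4.37 and 0.64, with 1.47 when types XV and XVIII were added. Basement membrane genes thus had the highest median among detected members and fibrillar genes in the other settings. With single libraries the medians ranged from 2.22 to 2.51, 1.395 to 1.40 and 0.91 to 1.25, and the detected members from 24 to 27.

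The median log2 ratio of the collagens stayed between -0.232 (genes with a mean of 100 counts) and -0.096 (alignment-free counts). On log2(TPM + 0.1), 1 member, Col6a5, passed 2-fold, against 0 under the other settings. List medians in alignment-free TPM were 12.3 for synthesis, 4.86 for propeptide processing, 0.773 for crosslinking, 4.23 for turnover, 3.51 for receptors, 5.48 for basement membrane partners, 3.80 for fibril-associated genes and 9.08 for regulators. The crosslinking genes at threshold numbered 3 in alignment-free TPM and 3 at 0.5 TPM; with single libraries they numbered 1 to 2. Receptors numbered 5 at 2 TPM. With single libraries the list medians ranged from 6.78 to 7.41 (synthesis), 2.845 to 2.99 (propeptide processing), 0.51 to 0.57 (crosslinking), 2.18 to 2.87 (turnover), 1.94 to 2.85 (receptors), 4.0 to 4.06 (basement membrane partners), 2.22 to 3.31 (fibril-associated) and 5.38 to 6.30 (regulators). The cause of these shifts was not tested. Of the 14 chain ratios of mean levels, those of Col4a1 to Col4a2 and Col8a1 to Col8a2 changed their side of 1, on coding transcripts alone or in a single library. The mean ratio of Col4a3 to Col4a4 was 0.302, and 0.77 in alignment-free TPM. Depth limits members with few counts, such as Col2a1 with 25 in replicate 1 and 10 in replicate 2.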
